A study of Mus musculus with 12 samples.

Results

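The genes described here are 33 mouse genes of epithelial junctions and of epithelial regulation, taken by gene name from gene tables of 24396 genes measured in tumour cells sorted from lungs and 22035 genes measured in cultured tumour cells. They fall into 3 genes of the adherens junction and EpCAM (Cdh1, Cdh3, Epcam), 14 of the tight junction (Cldn1, Cldn3, Cldn4, Cldn6, Cldn7, Cldn12, Ocln, Tjp1, Tjp3, Cgn, F11r, Marveld2, Marveld3, Lsr), 3 of the desmosome (Dsp, Jup, Pkp3), 3 surface proteases and protease inhibitors (St14, Spint1, Spint2), 3 genes of vesicle traffic and membrane protrusion (Rab25, Ap1m2, Prom2) and 7 regulators (Esrp1, Esrp2, Grhl1, Grhl2, Ovol1, Ovol2, Elf3). All 33 had a row in both sets of tables.

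The study holds 12 RNA libraries, 3 in each of 4 groups, all from 4T1, a mammary carcinoma line of Balb/c mice. In the lung setting, 5000 4T1 cells labelled with mNeonGreen, a green fluorescent protein, were injected into a tail vein of Balb/c mice, and samples of 100000 cells were sorted 4 weeks later out of the lungs of mice labelled old (in vivo old) or young (in vivo young), with no age given beyond that. In the culture setting, 4T1 cells were kept for 72 h in serum-free RPMI-1640 medium with 25% interstitial fluid extract (IFE), the fluid recovered from lungs of 4T1 metastasis-bearing mice, which were old (old IFE) or young (young IFE). The title of the series states that IFE was used to model cancer in old age in culture. All groups share the same tumour line, and the fluorescent label is named for the injected cells only. The cultured libraries are titled shNT, a term left undefined for these cells. The labels do not say whether replicates came from separate mice, lung pools or cultures, so each p-value measures the spread between these libraries, which may be technical.

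Epithelial cells are held together by junctions: adherens junctions, in which the cadherin Cdh1 (E-cadherin) bridges neighbouring cells, desmosomes, which anchor keratin filaments, and tight junctions, in which claudins and occludin seal the space between cells and are tied to actin by scaffold proteins. The splicing factors Esrp1 and Esrp2 and the transcription factors of the Grhl and Ovol families keep epithelial splicing and transcription in place, while Zeb and Snai proteins repress Cdh1 and other junction genes. 4T1 cells spread to the lung while they keep epithelial junction proteins such as E-cadherin.

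Each library held 11679046 to 15053144 counts in vivo and 12299004 to 18129164 in culture. Replicates in vivo differed by a chi-square per degree of freedom of 2.25 to 2.57 across genes. The pairs of young IFE libraries gave 3.15 to 3.66, and those of old IFE 3.44 to 10.9, with the 2 highest values in the pairs that hold old IFE replicate 3, so the culture counts, signs, overlaps and interval limits are also given without that library. The 5 keratins listed as markers of mammary carcinoma were summed in CPM (counts per library size, scaled within each setting by edgeR's TMM). The sums were 3445 to 3534 CPM in vivo old and 2774 to 2893 in vivo young. In culture they were 980.2 to 1193 in old IFE and 1035 to 1104 in young IFE. Whether they tell 4T1 cells from lung epithelium was not tested. Krt7, Krt8 and Krt18 made up most of these sums, while Krt14 averaged 10.5 ± 0.438 CPM in old IFE and 7.85 ± 0.221 CPM in young IFE (SD, n = 3 each).

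Markers of host cells moved with the groups of sorted cells. All 12 macrophage markers tested were lower in old, and the 13 listed summed to 99.4 to 104 CPM in vivo old and 813 to 830.4 CPM in vivo young. The marker too low to test, Marco, lay higher in every old library, at 0.586 ± 0.147 CPM in vivo old and 0.0503 ± 0.0872 CPM in vivo young. Of 13 alveolar and airway markers tested, 7 were higher and 1 lower in old, with sums of 224 to 228 CPM in vivo old and 158 to 162 CPM in vivo young. The highest of these in old was Abca3, a lipid transporter, at 126 ± 6.11 CPM in vivo old and 122 ± 2.76 CPM in vivo young, and it also stood at 124 ± 1.35 CPM in old IFE and 110.4 ± 3.21 CPM in young IFE (SD, n = 3 each). The surfactant gene Sftpc, which defines alveolar type II cells, averaged 42.2 ± 2.18 CPM in vivo old and 13.0 ± 0.292 CPM in vivo young. The 1 marker lower in old was Napsa, at 3.09 ± 0.641 CPM in vivo old and 4.75 ± 0.429 CPM in vivo young. Of 9 fibroblast and pericyte markers tested, 6 were higher and 2 lower in old. Their sums were 1048 to 1054 CPM in vivo old and 928 to 944 CPM in vivo young, and the largest part was Npnt, with 622 ± 2.87 CPM in vivo old and 587 ± 3.95 CPM in vivo young. Of 9 endothelial markers tested, 3 (33.3%) were higher and none lower. Each of these counts stands beside 19.6% of all genes tested in vivo called higher in old and 20.4% called lower. Endothelial markers summed to 35.3 to 38.3 CPM in vivo old and 26.3 to 30.2 CPM in vivo young, and neutrophil markers to 59.0 to 61.5 CPM in vivo old and 62.3 to 71.0 CPM in vivo young. Of the markers in the tables none was at 0 in every library, but all 4 markers of mesothelium and 4 of the 16 alveolar and airway markers averaged under 1 CPM in both lung groups. Normal lung epithelium also expresses many of the 33 genes, and the part of these markers in the results below was not tested. In bulk libraries such as these, fewer cells of a type and less RNA per cell cannot be told apart.

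**Figure D1:**
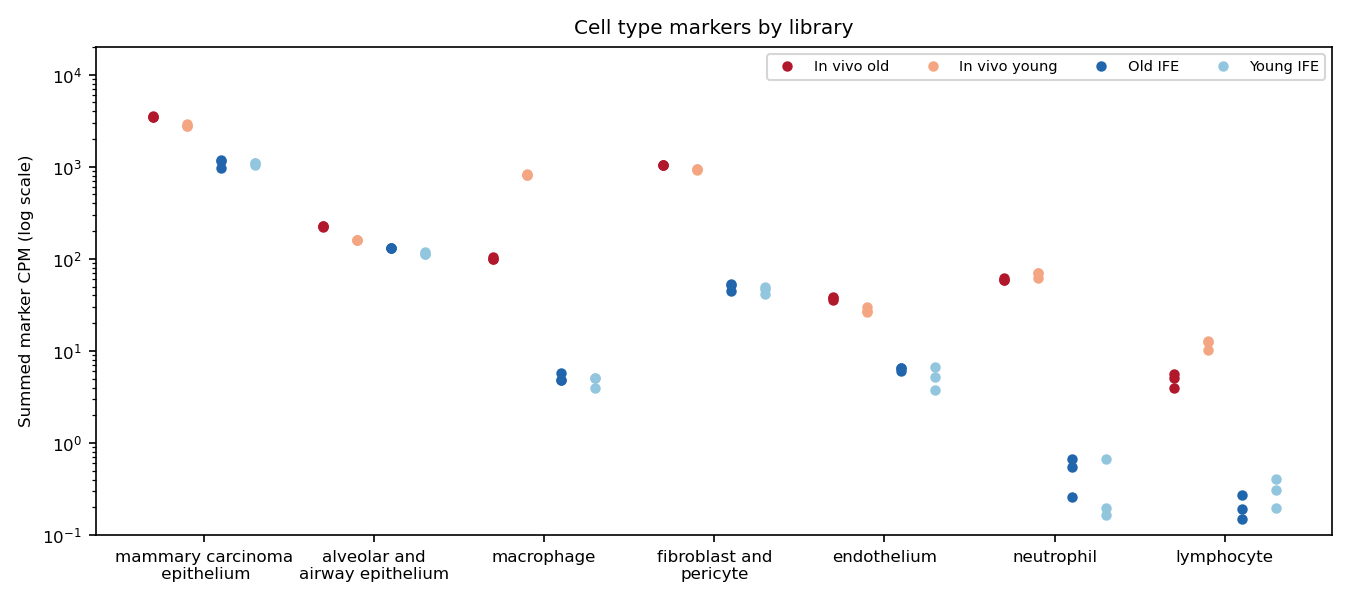
Summed CPM of marker genes of each cell type (vertical axis, log scale) in each library, with old before young within the lung and the culture setting; each point is 1 library. Macrophage markers summed to 99.4 to 104 CPM in vivo old and 813 to 830.4 CPM in vivo young, while alveolar and airway markers were higher in vivo old.

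The first comparison asked how the junction and regulator genes of tumour cells from old lungs differed from the same genes in cells of young lungs. Most of them were higher in old, by modest amounts: 21 of the 30 members with enough counts for a test were called higher and none lower by edgeR's quasi-likelihood test at an adjusted p under 0.05 (Benjamini-Hochberg over 14096 genes), where 19.6% of all genes tested were called higher and 20.4% lower (40.0% in all). DESeq2 called 21 higher and none lower, and limma on FPKM 20 higher and Marveld3 lower, the 1 member that also had an unadjusted p under 0.05 with a lower level in old in edgeR. The tight junction gene Cldn4 had the largest called change (2.17-fold) and was the 1 member past 2-fold, and the desmosome gene Dsp the smallest (1.10-fold). The median log2 fold change (old over young) of the 30 was 0.33, against 0.0019 over all genes tested. The members were chosen with earlier results of these data known, so their excess over all genes is a description and not independent support. In 22 members every old library lay above every young one, in 2 every old library lay below, and in 6 the groups overlapped, where 23.5% and 24.2% of all genes tested lay wholly above and below. Cldn1, Cldn6 and Grhl1 were too low for a test in vivo, and Cdh3 and Ovol2 entered it through the libraries of 1 group, so these counts do not cover all 33. With a threshold of 1.2-fold in place of no change, 11 of the 21 kept the call.

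**Figure D2:**
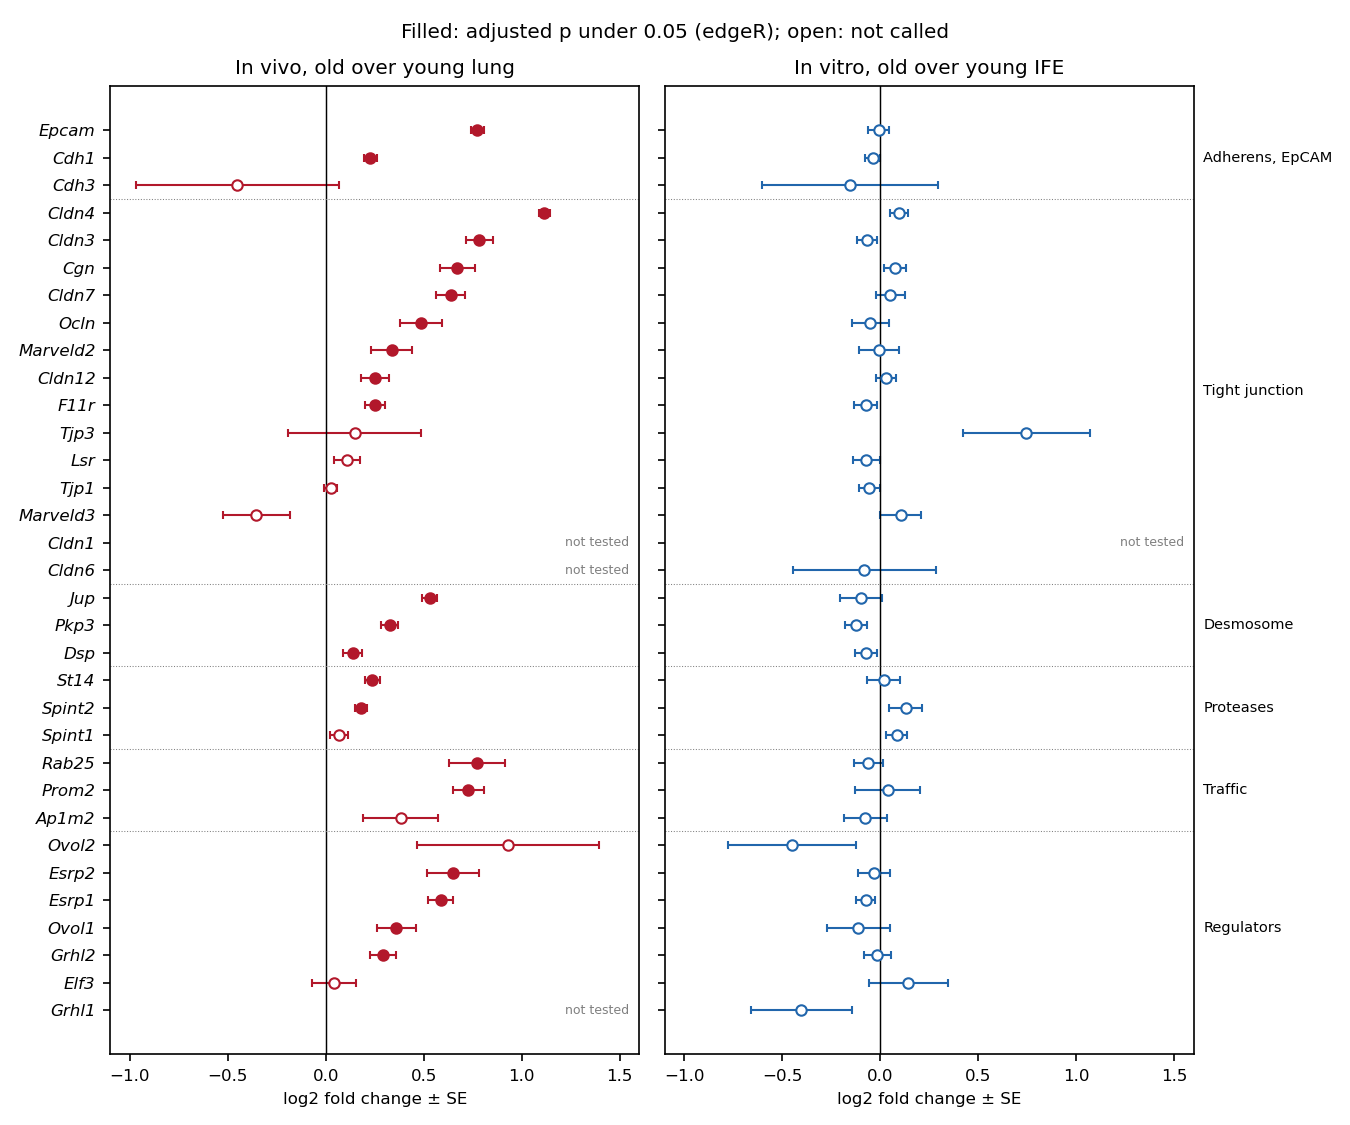
Log2 fold change of old over young (horizontal axis) with its SE for each member, in vivo on the left and in culture on the right, grouped by role; filled points were called and open ones not. In vivo the called members run from 0.14 for Dsp to 1.12 for Cldn4, whereas no member was called in culture.

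Among the adherens junction genes, Cdh1 and Epcam were higher in old and Cdh3 was near the limit of detection. Cdh1 (ENSMUSG00000000303, chromosome 8, 107329983 to 107396878, positions as deposited with no build stated), which encodes E-cadherin, had 239, 230.3 and 227 CPM in the 3 libraries of in vivo old and 204, 200.4 and 191 CPM in those of in vivo young. The groups did not overlap, though the gap was small beside the level, with a log2 fold change of 0.23 ± 0.033 (SE; adjusted p = 7.41e-09, edgeR). Epcam (ENSMUSG00000045394, chromosome 17, 87943407 to 87958557), an adhesion protein of the epithelial surface, had 262, 271 and 256 CPM in vivo old, against 153, 160.4 and 148 CPM in vivo young. Here the 2 groups stood far apart relative to their spread, with a log2 fold change of 0.77 ± 0.034 (adjusted p = 6.12e-38, edgeR). Cdh3, which encodes P-cadherin, had 0.517, 0.557 and 0.651 CPM in vivo old and 0.755, 0.884 and 0.728 CPM in vivo young and was not called (adjusted p = 0.525, edgeR). Over 11 other adherens junction genes tested the median log2 fold change was 0.20. Of these, 8 (72.7%) were higher and none lower in old, beside 19.6% of all genes called higher. Among these were Ctnna1, the α-catenin that links cadherin to actin (log2 fold change 0.24), Ctnnb1, the β-catenin bound to the cadherin tail (0.15), and Vcl, the actin-binding vinculin (0.20).

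Cldn4 and Cldn3 had the largest changes of the tight junction group, in which 8 of 12 members tested were higher in old and none lower. Cldn4 (ENSMUSG00000047501, chromosome 5, 134973973 to 134975788), a claudin of the paracellular seal, had 533, 520.0 and 515 CPM in vivo old and 239, 247 and 237 CPM in vivo young. Each old library lay far above each young one, with a log2 fold change of 1.12 ± 0.027 (adjusted p = 5.38e-59, edgeR). Cldn3 (ENSMUSG00000070473, chromosome 5, 135015068 to 135016326) had 55.9, 56.6 and 63.6 CPM in vivo old and 33.7, 33.3 and 35.2 CPM in vivo young. Cldn7 (ENSMUSG00000018569, chromosome 11, 69855605 to 69858711) had 43.4, 50.2 and 51.7 CPM in vivo old and 30.3, 30.5 and 32.7 CPM in vivo young. Neither claudin overlapped between the groups, and both rose, by log2 fold changes of 0.78 ± 0.069 for Cldn3 (adjusted p = 6.52e-18) and 0.64 ± 0.074 for Cldn7 (adjusted p = 3.22e-12, edgeR). Cldn12 rose less (0.25).

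Among the partners of the claudins, Cgn (ENSMUSG00000068876, chromosome 3, 94667376 to 94693826), which encodes the cytoplasmic linker cingulin, had 34.3, 32.4 and 32.0 CPM in vivo old and 19.8, 21.8 and 20.3 CPM in vivo young. It rose by a log2 fold change of 0.67 ± 0.088 (adjusted p = 2.39e-10, edgeR), with no overlap. Occludin (Ocln, 0.49), the immunoglobulin-like adhesion protein F11r (0.25) and the tricellular junction gene Marveld2 (0.34) also rose. Marveld2 lost its call without in vivo young replicate 3 (adjusted p = 0.0686, edgeR). The scaffold Tjp1 (ZO-1) overlapped between the groups, with a log2 fold change of 0.026 (adjusted p = 0.562, edgeR) and a 95% interval of -0.039 to 0.091. Lsr, a tricellular junction receptor, gave 0.11 (adjusted p = 0.189), Tjp3 (ZO-3) 0.15 (adjusted p = 0.766) and Marveld3 -0.35 (adjusted p = 0.0941, edgeR), so none of these was called. Of 21 further tight junction and polarity genes tested, 5 were higher and none lower, a share of 23.8% beside the 19.6% of all genes called higher, among them Cgnl1 (paracingulin, 0.22) and the polarity genes Pard6b (0.89), Patj (0.32) and Prkci (0.22). Cldn18, a claudin of lung epithelium, was at 1.36 ± 0.420 CPM in vivo old and 0.804 ± 0.195 CPM in vivo young and was not called (adjusted p = 0.161, edgeR). Among the other claudins outside the members, Cldn2 (-0.35) and Cldn9 (-0.53) lay lower in every old library. Cldn5 (0.40) and Cldn23 (0.35) overlapped between the groups, and none of these was called. Of the members too low to test, Cldn1 had 0.0696 to 0.651 CPM in vivo old and 0.0662 to 0.302 CPM in vivo young, and Cldn6 0.557 to 0.948 CPM in vivo old and 0.544 to 0.662 CPM in vivo young.

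**Figure D3:**
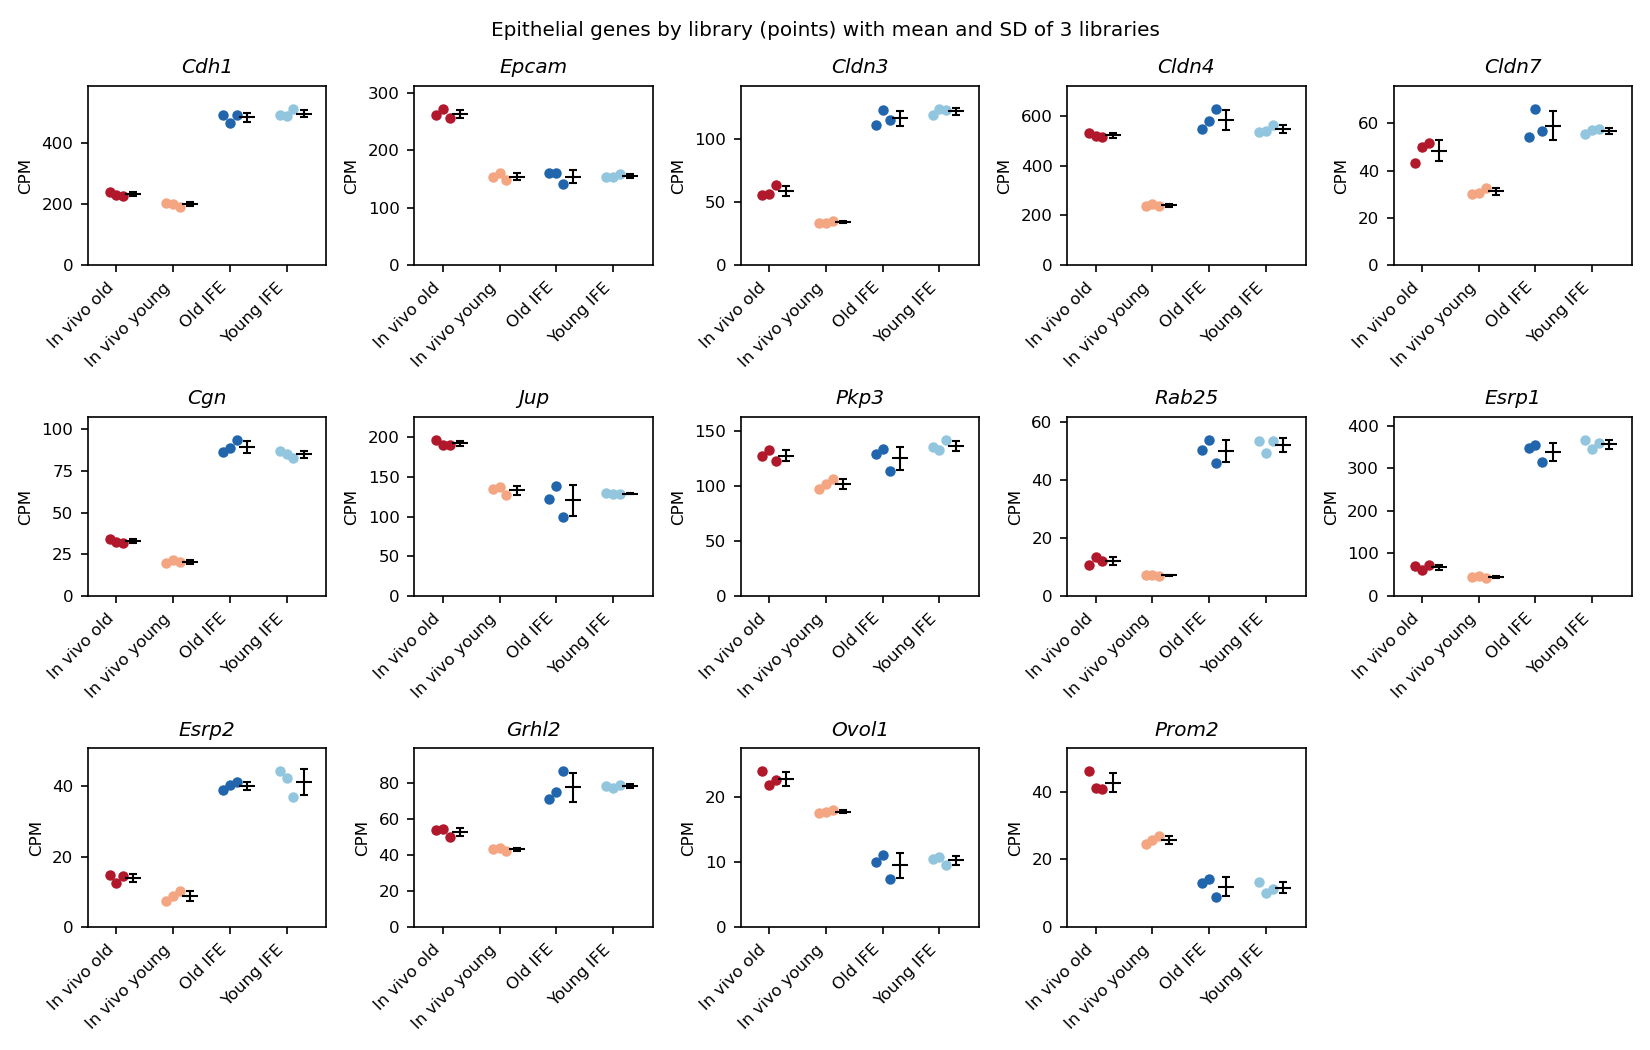
CPM of 14 members in each of the 12 libraries, 1 panel a gene, with the vertical axis starting at 0; points are libraries, and the ticks and bars beside them are the mean and SD, old left of young in each setting. For Cldn4 the libraries of in vivo old lie between 515 and 533 CPM and those of in vivo young between 237 and 247 CPM, while the culture groups overlap in each panel.

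All 3 desmosome members were higher in old. Jup (ENSMUSG00000001552, chromosome 11, 100259784 to 100288589), plakoglobin, which serves desmosomes and adherens junctions, had 196, 191 and 190.1 CPM in vivo old, against 135, 138 and 127 CPM in vivo young. Pkp3 (ENSMUSG00000054065, chromosome 7, 140658131 to 140670423), the plaque protein plakophilin 3, had 128, 133 and 123 CPM in vivo old, against 97.7, 102 and 106 CPM in vivo young. Neither gene overlapped between the groups, with log2 fold changes of 0.53 ± 0.037 for Jup (adjusted p = 1.15e-23) and 0.33 ± 0.043 for Pkp3 (adjusted p = 4.46e-10, edgeR). Dsp, desmoplakin, which ties the plaque to keratin, averaged 86.8 ± 2.40 CPM in vivo old and 78.9 ± 1.11 CPM in vivo young (SD, n = 3 each; log2 fold change 0.14, adjusted p = 0.0175, edgeR). Its call was lost on FPKM (adjusted p = 0.0834, limma with a pseudocount of 0.1), with TMM factors from genes that reach 10 CPM in culture (0.0586) and when in vivo old replicate 2 (0.0664), in vivo young replicate 1 (0.0550) or in vivo young replicate 2 (0.0558) was left out. Of 8 other desmosome genes tested, 4 were higher, namely Perp (0.45), Pkp2 (0.59), Pkp1 (0.64) and the cadherin Dsg2 (0.18), and 2 lower, the plakin genes Evpl (-0.27) and Ppl (-0.092). Over all genes tested, 19.6% were called higher and 20.4% lower. The keratins that desmosomes anchor were not uniform: Krt7 (0.75), Krt14 (0.67), Krt18 (0.39) and Krt8 (0.18) rose and Krt19 fell (-0.33).

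Of the surface proteases and inhibitors, St14, the membrane protease matriptase, averaged 169 ± 5.96 CPM in vivo old and 143 ± 2.70 CPM in vivo young, and its inhibitor Spint2 272 ± 3.27 CPM in vivo old and 239.9 ± 3.99 CPM in vivo young (SD, n = 3 each). Both were called, with log2 fold changes of 0.24 for St14 (adjusted p = 7.10e-08) and 0.18 for Spint2 (adjusted p = 3.08e-07, edgeR), and neither overlapped. The related inhibitor Spint1 overlapped between the groups and was not called (0.069, adjusted p = 0.254, edgeR).

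Rab25 and Prom2 were among the 5 largest called changes. Rab25 (ENSMUSG00000008601, chromosome 3, 88449336 to 88455607), a small GTPase of apical recycling endosomes, had 10.9, 13.6 and 12.2 CPM in vivo old and 7.40, 7.28 and 6.88 CPM in vivo young. It was the lowest of the called members in young, with at least 98 reads in each library, and its log2 fold change was 0.77 ± 0.14 (adjusted p = 3.57e-06, edgeR). Prom2 (ENSMUSG00000027376, chromosome 2, 127368393 to 127383387), prominin 2, a protein of plasma membrane protrusions, had 45.9, 41.1 and 40.9 CPM in vivo old and 24.6, 25.7 and 26.7 CPM in vivo young, a log2 fold change of 0.73 ± 0.079 (adjusted p = 1.67e-13, edgeR). Neither gene overlapped between the groups. Ap1m2, the epithelial adaptor subunit of basolateral sorting, had 7.93, 6.54 and 4.97 CPM in vivo old and 5.43, 5.37 and 4.10 CPM in vivo young. Its groups overlapped and it was not called (0.38, adjusted p = 0.102), but it was when in vivo old replicate 3 was left out (adjusted p = 0.0277, edgeR).

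Of 7 regulators, 6 could be tested, and 4 of these were higher in old: both Esrp genes, Grhl2 and Ovol1. Esrp1 (ENSMUSG00000040728, chromosome 4, 11331933 to 11386783) and Esrp2 (ENSMUSG00000084128, chromosome 8, 106856951 to 106863606) are RNA-binding proteins that set epithelial splice forms. Esrp1 had 70.5, 61.2 and 72.2 CPM in vivo old, against 46.0, 47.1 and 42.5 CPM in vivo young. Esrp2 had 14.9, 12.6 and 14.4 CPM in vivo old, against 7.55, 8.84 and 10.1 CPM in vivo young. Both were apart in all libraries and rose, with log2 fold changes of 0.59 ± 0.063 for Esrp1 (adjusted p = 1.01e-13) and 0.65 ± 0.13 for Esrp2 (adjusted p = 2.92e-05, edgeR). Their FPKM ratio, Esrp1 over Esrp2, was 3.35 ± 0.0974 in vivo old and 3.58 ± 0.656 in vivo young (SD, n = 3 each).

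The transcription factor gene Grhl2 (ENSMUSG00000022286, chromosome 15, 37233280 to 37363813), an activator of Cdh1 and claudin genes, had 53.7, 54.2 and 50.1 CPM in vivo old, against 43.1, 44.0 and 42.2 CPM in vivo young. Ovol1 (ENSMUSG00000024922, chromosome 19, 5599164 to 5610674), a zinc finger repressor of mesenchymal genes, had 23.9, 21.8 and 22.6 CPM in vivo old, against 17.5, 17.7 and 17.9 CPM in vivo young. Neither overlapped, with log2 fold changes of 0.29 ± 0.066 for Grhl2 (adjusted p = 0.000146) and 0.36 ± 0.1 for Ovol1 (adjusted p = 0.00210, edgeR). Ovol2 was near the limit of detection, at 1.72, 1.32 and 0.814 CPM in vivo old and 0.302, 0.612 and 1.06 CPM in vivo young, and of the alternatives run it was called in 1, without in vivo young replicate 3 (adjusted p = 0.0447, edgeR). The ETS factor Elf3 overlapped between the groups (0.043, 95% interval -0.18 to 0.27), and Grhl1 had 0.172 to 0.765 CPM in vivo old and 0.377 to 0.748 CPM in vivo young, too low to test. Of 8 other epithelial regulators tested, 3 were higher, namely Klf5 (0.23), Gata3 (0.19) and the low Ehf (1.34), and Trp63 was lower (-1.06). The share called higher was 37.5%, beside 19.6% of all genes tested.

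The repressors of junction genes did not move as 1 group. Of 4 tested, Zeb2 was lower in old (81.1 ± 1.95 CPM in vivo old, 102 ± 2.28 CPM in vivo young, log2 fold change -0.33, adjusted p = 3.39e-09, edgeR) and Snai1 higher (106 ± 2.40 CPM in vivo old, 88.4 ± 0.928 CPM in vivo young, log2 fold change 0.26, adjusted p = 9.93e-07, edgeR). Zeb1 averaged 7.08 ± 0.748 CPM in vivo old and 6.65 ± 1.44 CPM in vivo young and was not called, and Snai2 was not analysed here in vivo. Macrophages also express Zeb2, and the fall of macrophage markers moved with it. Their part in the fall of Zeb2 was not tested.

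Because the members moved together and the repressors bind a known motif, the RefSeq promoter sequences (GRCm38.p6) of the members were searched for 6 motifs on both strands. Windows of 300 bases, from 250 before to 50 after the transcript start, were found for 24 of the 33 genes. No window was found for Cdh1, Cdh3, Esrp1, Esrp2, Grhl2, Marveld3, Ovol1, Pkp3 and St14, so the shares do not cover them. CACCTG, the E-box read by Zeb and Snai proteins, was in the window of 15 of the 24 genes (62.5%), against 22.6% of 27025 genes with a window, among them 10 of 14 called higher in vivo and 5 of 10 others. The GC box GGGCGG was also more frequent among members, at 79.2% against 38.2% of genes. The base composition of the windows was not measured. The 27025 genes were not limited to those tested in vivo, and windows numbered 31 for the 24 members and 32851 for all. The part of these differences in the counts was not tested. AACCNGTT, the core of the Grainyhead motif, was in 2 of 24, Rab25 and Cgn, against 2.35% of genes. The 250 bases before the start are printed 5′ to 3′ on the gene's strand for Cldn4, Epcam, Rab25 and Cgn, which carry a motif and were called, and for Lsr, which holds 4 E-boxes and was not called. Capitals mark the matches, CACCTG or its reverse complement CAGGTG and, in Rab25 and Cgn, the Grainyhead core.
Cldn4 (chr5:134946935-134947184, minus strand): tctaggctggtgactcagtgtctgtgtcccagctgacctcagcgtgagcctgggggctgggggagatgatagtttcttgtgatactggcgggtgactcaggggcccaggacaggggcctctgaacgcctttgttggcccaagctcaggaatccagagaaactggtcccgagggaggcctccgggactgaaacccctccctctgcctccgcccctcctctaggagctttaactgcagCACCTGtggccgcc
Epcam (chr17:87635729-87635978, plus strand): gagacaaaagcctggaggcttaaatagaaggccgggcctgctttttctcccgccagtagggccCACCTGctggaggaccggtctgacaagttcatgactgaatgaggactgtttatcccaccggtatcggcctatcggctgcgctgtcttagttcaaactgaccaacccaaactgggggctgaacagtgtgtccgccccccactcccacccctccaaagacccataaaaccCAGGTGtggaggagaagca
Rab25 (chr3:88548280-88548529, minus strand): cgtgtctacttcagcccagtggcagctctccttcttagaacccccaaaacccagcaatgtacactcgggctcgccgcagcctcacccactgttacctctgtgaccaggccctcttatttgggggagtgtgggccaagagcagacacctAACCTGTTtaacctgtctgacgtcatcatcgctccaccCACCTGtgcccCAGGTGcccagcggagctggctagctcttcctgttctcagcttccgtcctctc
Cgn (chr3:94786483-94786732, minus strand): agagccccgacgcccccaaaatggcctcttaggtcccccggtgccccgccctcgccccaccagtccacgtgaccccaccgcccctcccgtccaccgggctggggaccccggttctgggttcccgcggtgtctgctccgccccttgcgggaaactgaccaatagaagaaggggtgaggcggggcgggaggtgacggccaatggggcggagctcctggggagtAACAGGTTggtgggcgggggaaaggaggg
Lsr (chr7:30973470-30973719, minus strand): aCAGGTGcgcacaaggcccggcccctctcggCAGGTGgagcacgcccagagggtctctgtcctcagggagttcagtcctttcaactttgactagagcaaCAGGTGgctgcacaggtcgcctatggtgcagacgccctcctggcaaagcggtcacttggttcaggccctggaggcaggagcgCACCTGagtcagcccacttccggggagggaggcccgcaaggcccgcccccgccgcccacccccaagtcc
A match describes these letters only and is not evidence of binding. In Cldn4 the E-box lies 14 bases before the start, and in Epcam 1 of the 2 lies 19 bases before it. Rab25 holds both kinds of motif, with the E-boxes 64 and 53 bases and the Grainyhead core 102 bases before the start, while Cgn holds the Grainyhead core alone, 29 bases before it. Lsr, with 4 E-boxes, had the in vivo log2 fold change of 0.11 given above and was not called.

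The second comparison asked how cells kept in IFE of old lungs differed from cells kept in IFE of young lungs. No junction or regulator gene was called: 0 of 32 members tested were called by edgeR in either direction, where 0.0534% of 13118 genes tested were called higher and 0.0305% lower (0.0839% in all). At an unadjusted p under 0.05 there were 3 members, and DESeq2 and limma on FPKM called 0. Those 3 were Tjp3, with a log2 fold change of old IFE over young IFE of 0.75 (adjusted p = 0.665), Pkp3, with -0.12 (adjusted p = 0.701), and Cldn4, with 0.095 (adjusted p = 0.703, edgeR). The groups overlapped in all 32 members, where 6.21% of all genes tested lay wholly above and 6.92% wholly below in old IFE. The log2 fold change was positive for 11 and negative for 21, with a median of -0.044, against 0.0051 over all genes tested.

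Cldn4, Epcam and Cdh1, all called higher in old in vivo, overlapped between the 2 extracts in culture. Cldn4 had 548, 579 and 627 CPM in old IFE and 537, 539.7 and 565 CPM in young IFE. Epcam had 161, 160.0 and 141 CPM in old IFE and 154, 152 and 158 CPM in young IFE. Cdh1 had 492, 465 and 493 CPM in old IFE and 492, 487 and 509.8 CPM in young IFE. In all of these the ranges of the 2 groups crossed, and the upper bound of the 95% interval of the log2 fold change was 0.19 for Cldn4, 0.10 for Epcam and 0.043 for Cdh1.

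Among the other junction genes, Cldn3 had 111, 123 and 115 CPM in old IFE and 119, 123 and 123 CPM in young IFE, and Cldn7 54.4, 65.9 and 56.7 CPM in old IFE and 55.5, 57.4 and 57.6 CPM in young IFE. Cgn had 86.6, 88.5 and 93.4 CPM in old IFE and 86.9, 85.3 and 82.9 CPM in young IFE. All 3 overlapped between the extracts. Jup had 123, 139 and 100.2 CPM in old IFE and 129.6, 129 and 128 CPM in young IFE, and Pkp3 129.5, 134 and 114 CPM in old IFE and 136, 133 and 142 CPM in young IFE. For both desmosome genes the lowest of the old IFE values was that of replicate 3, the library that stood apart. Rab25 had 50.3, 53.7 and 45.9 CPM in old IFE and 53.5, 49.2 and 53.4 CPM in young IFE, and Prom2 12.9, 14.1 and 8.78 CPM in old IFE and 13.3, 10.2 and 11.2 CPM in young IFE. Prom2 too was lowest in old IFE replicate 3.

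Among the regulators, Esrp1 had 346, 354 and 315 CPM in old IFE and 365, 344 and 359.6 CPM in young IFE, and Esrp2 39.0, 40.2 and 41.3 CPM in old IFE and 44.2, 42.2 and 36.9 CPM in young IFE. Grhl2 had 71.0, 75.0 and 86.4 CPM in old IFE and 78.6, 77.0 and 78.9 CPM in young IFE, and the low Ovol1 10.0, 11.1 and 7.30 CPM in old IFE and 10.4, 10.8 and 9.46 CPM in young IFE. All 4 overlapped between the extracts. For the 27 members at 10 CPM or more in young IFE, the 95% intervals of the log2 fold change lay between -0.44 (Ovol1) and 0.63 (Elf3), so changes as large as that of Cldn4 in vivo lay outside the interval of each. A p that misses the threshold does not show that the 2 extracts acted alike. No gene of the other junction, regulator and repressor lists was called in culture either.

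Without old IFE replicate 3, edgeR again called 0 of 32 members, where 1.37% of 13371 genes tested were called. The log2 fold change was then positive for 12 and negative for 20. In 1 member, Epcam, both remaining old IFE libraries lay above all young ones, and in 6 (F11r, Grhl1, Grhl2, Ovol2, St14, Tjp1) they lay below, where 14.3% of all genes tested lay above and 14.6% below. At an unadjusted p under 0.05 there were then 4 members, all lower in old IFE (adjusted p of 0.0847 to 0.314, edgeR). These were Tjp1 (log2 fold change -0.13), F11r (-0.14), Grhl1 (-0.70) and St14 (-0.093). The members under that p with the library were no longer so. Their log2 fold changes were 0.45 for Tjp3, -0.057 for Pkp3 and 0.042 for Cldn4, all closer to 0 than with that library. Those of Elf3 and Ovol1, which set the outer interval limits above, turned sign to -0.12 for Elf3 and 0.045 for Ovol1, and the limits over the 27 members became -0.32 (Elf3) and 0.50 (Prom2). None of 46 genes tested on the other junction, regulator and repressor lists was called without it.

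The third comparison tested whether the old against young change differed between lung and culture, as an interaction over all 12 libraries. It was more positive in vivo for 15 of 32 members and more negative for none by edgeR's quasi-likelihood test, where 9.10% of 14318 genes tested were more positive and 8.37% more negative (17.5% in all). DESeq2 gave 15 and 0, while limma on FPKM with a pseudocount of 0.1 gave 14 and called Marveld3 more negative (adjusted p = 0.0479). By role these 15 were Cdh1 and Epcam, the tight junction genes Cldn3, Cldn4, Cldn7, Ocln, Cgn and F11r, the desmosome genes Jup and Pkp3, the traffic and protrusion genes Rab25 and Prom2, and the regulators Esrp1, Esrp2 and Grhl2. The difference of log2 fold changes, in vivo minus culture, was 1.02 ± 0.056 for Cldn4 (adjusted p = 4.61e-16) and 0.78 ± 0.066 for Epcam (adjusted p = 6.36e-11, edgeR), and the smallest called was that of Cdh1, 0.26 ± 0.055 (adjusted p = 0.000785). None of St14, Spint1 and Spint2 differed by the test. Without old IFE replicate 3 the count was 18, with Tjp1, St14 and Spint2 added. The call of Ocln was lost without in vivo young replicate 3 (adjusted p = 0.0658, edgeR), that of F11r on FPKM (0.0574, limma) and without in vivo old replicate 2 or 3 or in vivo young replicate 1 (up to 0.0746), and that of Grhl2 on FPKM (0.0662, limma) and without in vivo old replicate 1 or 2, in vivo young replicate 1 or 3, old IFE replicate 1 or 2 or young IFE replicate 3 (up to 0.0851). Cldn12 was called without young IFE replicate 2 (0.0484), Ovol1 without old IFE replicate 2 (0.0306), Dsp without old IFE replicate 1 (0.0431) or 2 (0.0227), and Marveld3, as more negative, without old IFE replicate 2 (0.0362, all edgeR). The labels name the setting as the batch, so the 2 cannot be told apart, and macrophage markers, which differed between the lung groups, summed to 4.81 to 5.75 CPM in old IFE and 3.99 to 5.05 CPM in young IFE.

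The levels of the members relative to one another were read in FPKM, which is per length, from tables that were normalized separately. They are given as a description with no test. Of the library totals that the FPKM imply, 9.88% to 10.7% lay outside the tables in vivo and -0.56% to 1.38% in culture. Cldn4 was the highest member in each group, at 257 ± 5.20 FPKM in vivo old, 119 ± 2.54 in vivo young, 320.5 ± 22.2 in old IFE and 300.5 ± 9.39 in young IFE (SD, n = 3 each). In both lung groups it was followed by Epcam, Spint2 and Cdh1, and in both culture groups by Cdh1, Cldn3, Epcam and Spint2. In vivo old, Cldn3 (41.6 ± 2.97 FPKM) and Cdh1 (45.4 ± 1.32 FPKM) had overlapping intervals of mean ± SD, as did Epcam (69.8 ± 4.83 FPKM) and Spint2 (67.3 ± 8.45 FPKM) in old IFE. At the low end were Cldn1, Cdh3 and Grhl1 in vivo, each at a mean under 0.2 FPKM.

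The FPKM of the 6 claudin members summed to 328 to 332 in vivo old, 164 to 168 in vivo young, 448 to 496 in old IFE and 448 to 469.8 in young IFE. Cldn4 made up 77.8% ± 1.42 of that sum in vivo old, 71.8% ± 0.960 in vivo young, 67.6% ± 1.68 in old IFE and 65.8% ± 0.398 in young IFE. Cldn3 made up 12.6% ± 0.878 in vivo old and 14.6% ± 0.546 in vivo young, and Cldn7 6.72% ± 0.622 in vivo old and 8.66% ± 0.404 in vivo young. Cldn12 made up 2.76% ± 0.0556 of the sum in vivo old and 4.64% ± 0.167 in vivo young, although its own level was called higher in old. The share of Cldn4 was higher in every old lung library than in any young one, from 76.3% to 79.2% in vivo old and from 70.8% to 72.6% in vivo young.

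**Figure D4:**
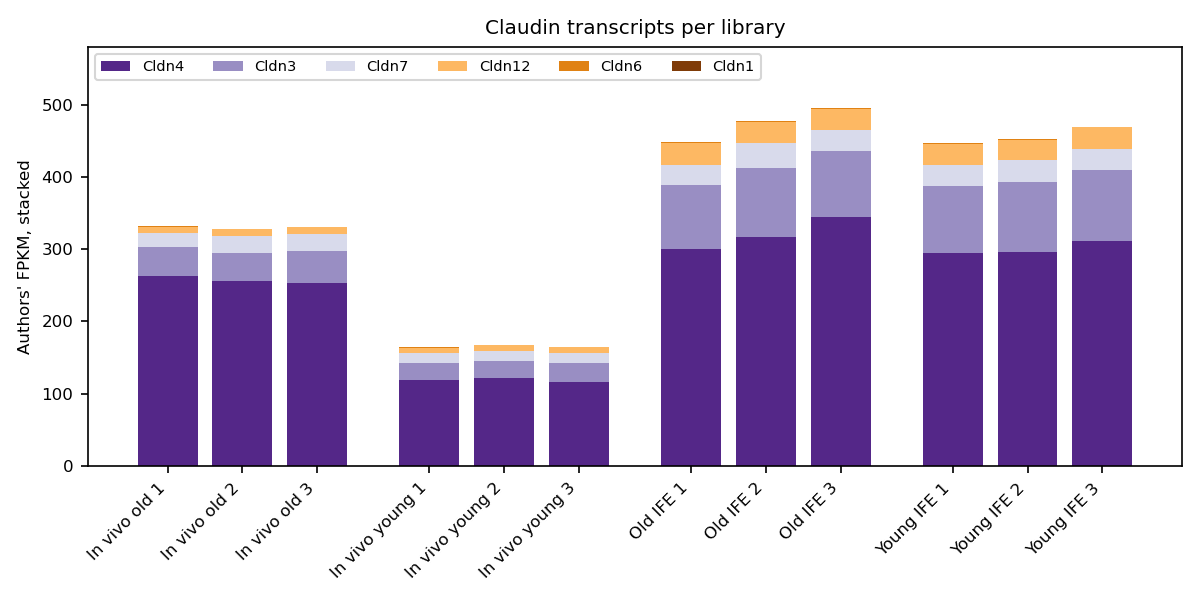
FPKM of the claudin members stacked in each library (vertical axis from 0), old left of young in the lung and in the culture setting. The stack reaches 328 to 332 FPKM in vivo old, 164 to 168 in vivo young and 448 or more in culture, and Cldn4 is the largest part of each.

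In FPKM, most members stood lower in lung than in culture, and more so in young lungs. In vivo old libraries lay wholly below old IFE for 24 of 33 members, wholly above for 4 (Epcam, Jup, Ovol1, Prom2) and overlapped for 5. In vivo young libraries lay wholly below young IFE for 29, wholly above for 2 (Ovol1, Prom2) and overlapped for 2. For 25 of 33 members the mean of old lungs lay between that of young lungs and those of both culture groups. Shares over all genes were not computed for these counts, so the counts do not set the members apart from other genes. Esrp1 stood at 9.63 ± 0.844 FPKM in vivo old, 6.42 ± 0.338 in vivo young, 53.4 ± 3.19 in old IFE and 56.3 ± 1.74 in young IFE, which is 0.18 of the culture level in old lungs and 0.114 in young lungs. Rab25 stood at 6.53 ± 0.728 FPKM in vivo old, 3.85 ± 0.147 in vivo young, 29.7 ± 2.23 in old IFE and 31.0 ± 1.47 in young IFE. Prom2 went the other way, with 7.34 ± 0.510 FPKM in vivo old, 4.44 ± 0.179 in vivo young, 2.29 ± 0.531 in old IFE and 2.23 ± 0.303 in young IFE. Epcam was above culture in old lungs and, in FPKM, below it in young lungs. In CPM, scaled within each setting, Epcam averaged 154 ± 6.02 in vivo young and 155 ± 3.19 in young IFE (SD, n = 3 each). Jup, also below culture in young lungs in FPKM, averaged 133 ± 5.40 CPM in vivo young and 129 ± 0.713 CPM in young IFE. For Jup the order of the means of young lungs and culture thus depends on the scale. For Epcam the mean stayed lower in young lungs, but its libraries, apart in FPKM, overlapped in CPM. Since host RNA, growth medium, the sort and the batch differ between the settings, these differences between lung and culture cannot be told apart from any of them.

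**Figure D5:**
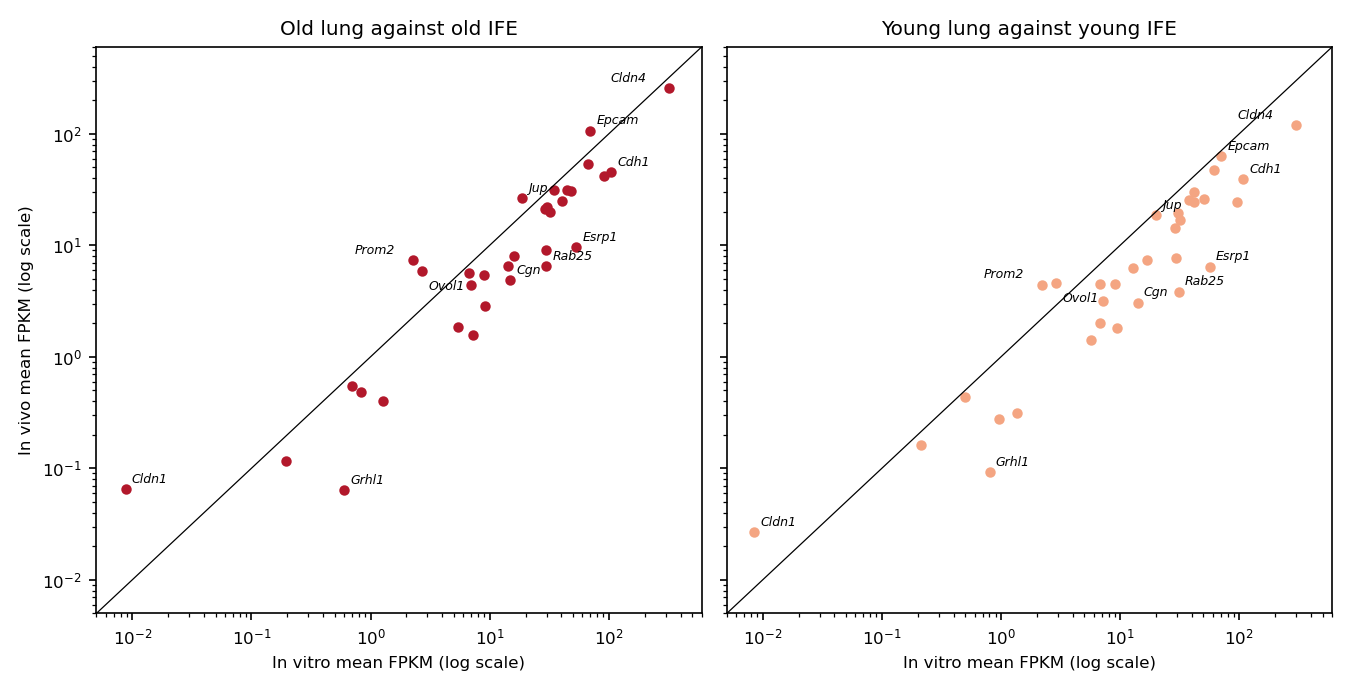
Mean FPKM of each member in lung (vertical axis, log scale) against the mean in culture (horizontal axis, log scale), for old and young groups; the diagonal marks equal levels. Most members lie below the diagonal, and Ovol1, Prom2 and Cldn1, whose level is close to 0, lie above it in both panels.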

How the data were processed

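The 12 libraries were made from poly-A RNA. The labels' protocols describe both a directional and a non-directional library without saying which was used, so a gene and an antisense or overlapping neighbour cannot be told apart. The authors deposited raw counts per gene, FPKM (per kilobase of gene length and library total) and a normalized signal (counts divided by 1 size factor per library) for each setting. HISAT2 2.0.5, featureCounts 1.5.0-p3 and DESeq2 are named, per the submitters' processing notes, which also name a human build although the rows are mouse genes. For the coordinates no genome build was stated in the sources used here.

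Counts of in vivo young replicate 3 were recovered from the deposited signal multiplied by its size factor, since 5 of the 6 libraries had a count column. The product was whole within 0.001 for 100.0% of genes, and in the other 11 libraries it equalled the deposited count for 100.0%. This departs from the plan, which used deposited counts alone.

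Each setting was fitted on its 6 libraries with edgeR 4.0.16 (R 4.3.3): TMM scaling, edgeR's default filter on low counts (14096 genes left in vivo, 13118 in culture), robust quasi-likelihood fit and F-test, with group as the only term and Benjamini-Hochberg adjustment over all genes tested. The difference between settings was an interaction contrast over 12 libraries and 14318 genes. A call is an adjusted p under 0.05. The SE was taken from the fold change and its F statistic (log2 scale, ratio to the root of F). The procedure was tested on simulated counts, where false calls exceeded the 0.05 threshold's share within each setting but not in the difference, and where the smallest fold simulated was often missed.

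The members and lists were chosen with earlier results of these data known. All 33 members are named. Every library value is given for the 10 largest called changes in vivo, for members called in culture, for up to 6 called in the difference of lowest p, and for Cdh1, Epcam, Cldn7, Esrp1, Grhl2 and Ovol1. Of each related list, up to 3 genes of lowest p in vivo are named, plus Zeb1, Zeb2, Snai1 and Snai2. A gene that this rule takes is not reported here. The keratins, Abca3, Sftpc, Napsa, Marco, Npnt, Cldn2, Cldn5, Cldn9, Cldn18, Cldn23, Patj, Prkci, Dsg2, Evpl, Ppl and Trp63 were named after their values were seen. Alternatives were DESeq2 1.42.0, other scalings and filters, limma 3.58.1 on log2(FPKM + 0.1) and log2(FPKM + 1), a 1.2-fold threshold, the replicate number as a block and leaving out each library.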

Additional observations from a re-analysis of the deposited data

Results flagged for a closer look

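For 15 members the old against young change differed between the lung and the culture setting by the interaction test (edgeR's quasi-likelihood test, adjusted over 14318 genes), each with a more positive log2 fold change in vivo than in culture. Among the adherens junction genes and EpCAM, the difference of log2 fold changes, in vivo minus culture, was 0.78 for Epcam, from 0.77 in vivo and -0.0073 in culture, and 0.26 for Cdh1. Among the claudins it was 1.02 for Cldn4, 0.85 for Cldn3 and 0.58 for Cldn7. The other tight junction genes gave 0.59 for Cgn, 0.53 for Ocln and 0.32 for F11r. In the desmosome it was 0.62 for Jup and 0.45 for Pkp3. Rab25 gave 0.83 and Prom2 0.69. Among the regulators it was 0.68 for Esrp2, 0.66 for Esrp1 and 0.30 for Grhl2. The adjusted p ran from 4.61e-16 for Cldn4 to 0.0220 for Grhl2.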

How the results depend on the processing

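The count of members called higher in vivo was 20 to 22 with 1 library left out, 21 with DESeq2, with DESeq2-style size factors, with no filter and with a filter at a mean of 2 CPM, and 20 when TMM factors came from genes that reach 10 CPM in culture and are on no host marker list, which was added after seeing the data. Tested against a fold of 1.2 it was 11. In culture the count was 0 under every alternative. For the difference between settings it was 13 to 18 with 1 library left out and 9 against a fold of 1.2. At that threshold 1853 of all genes were called in vivo, 0 in culture and 611 in the difference, against 5639, 11 and 2501 without it. In culture, leaving out 1 library moved the count over all genes between 1 and 183 (183 without old IFE replicate 3), with DESeq2 28, limma 2 and no filter 70. No call turned direction. Apart from the fold threshold, Marveld2 and Dsp lost the call in vivo, and Ocln, F11r and Grhl2 in the difference, in at least 1 alternative. The uncalled sign turned in 1 member value in vivo, 23 in culture and 11 in the difference. With the replicate number as a replicate block the counts were 21 in vivo, 0 in culture and 16 in the difference. Deviations of libraries of the same number had correlations of -0.033 to 0.040, and those of unlike number in culture -0.056 to 0.052. The check therefore showed no pairing by number but cannot exclude it. Depth limited Cldn1, Cldn6 and Grhl1 in vivo and Cldn1 in culture, which were not tested, and Cdh3, Ovol2 and Tjp3, which had wide intervals.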

Other observations

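Other motifs in the promoter windows of the 24 members with a RefSeq window were at 70.8% for GGAAG (the ETS core), against 73.9% of all genes, at 16.7% for TGANTCA (the AP-1 site), against 8.97%, and at 4.17% for TATAAA, against 15.7%. These shares are a description with no test. The polarity gene Pard6b, which is not a member, had a difference of log2 fold changes (in vivo minus culture) of 0.84 ± 0.12 (adjusted p = 4.83e-06, edgeR), with 17.9 ± 0.557 CPM in vivo old, 9.66 ± 1.05 CPM in vivo young, 86.9 ± 8.20 CPM in old IFE and 84.5 ± 2.97 CPM in young IFE (SD, n = 3 each). Krt19, a keratin of simple epithelia, was the 1 of 5 keratins lower in old, at 58.4 ± 1.09 CPM in vivo old and 73.2 ± 2.29 CPM in vivo young, and Ppl, a desmosomal plakin, was lower by a log2 fold change of -0.092 (adjusted p = 0.0226, edgeR) beside the higher Dsp.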
